A study of Homo sapiens with 12 samples.

Results

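The genes described here are 8 cytoplasmic protein tyrosine phosphatases (PTPN1, PTPN2, PTPN6, PTPN7, PTPN11, PTPN12, PTPN18 and PTPN22) and 2 ubiquitin ligases of the CBL family (CBL and CBLB). They were taken by symbol from a given list whose rule uses no measured value, though the list was drawn up with results of these data known. All 10 were found among the 18417 genes tested, each by a single array row that names no other gene. Expression was measured on Affymetrix Gene ST arrays in HEL and UKE1 cells, established human lines that the labels call erythroleukemia cells and that carry the JAK2V617F mutation. The groups were HEL without drug, HEL with 250 nM ITF2357, UKE1 without drug and UKE1 with 250 nM ITF2357, each cultured for 6 h and each with 3 arrays, 12 in all. ITF2357 (givinostat) inhibits histone deacetylases. All 4 groups carry the JAK2 mutation, so no comparison here is against unmutated JAK2, and each line stands for 1 cell source. The medium of UKE1, with or without drug, also held horse serum and hydrocortisone, which that of HEL did not. The series calls the triplicates independent but does not say how the cultures were kept apart, so the p-values reflect no more than the spread of these arrays, which may be technical.

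Signalling by cytokine receptors runs on tyrosine phosphorylation: JAK kinases phosphorylate the receptors, each other and the STAT transcription factors. Tyrosine phosphatases remove these phosphates, and CBL proteins attach ubiquitin to active kinases and receptors so that they are internalised and degraded. The JAK2V617F mutation keeps JAK2 active without cytokine, and loss of CBL function is a known lesion of myeloid neoplasms.

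The 5 RefSeq windows of assembly GRCh38.p14 shown first each run from 250 bases before to 50 after an annotated start site. They belong to PTPN7, which had the largest change with the drug, to PTPN22, which differed most between the untreated lines, and to PTPN1, which rose in both lines. Capitals mark matches on either strand to 7 motifs. The motif searched for STAT proteins was TTCNNNGAA, that for GATA factors AGATAA and that for NFE2 and AP-1 TGANTCA. MYB, a factor of blood progenitors, was searched as CAACNG, and the RUNX family was searched with the letters TGTGGT. The ETS family was represented by CCGGAAG, while SP1 was searched as GGGCGG. Each sequence runs 5′ to 3′ on the gene's strand, and matches in these windows do not overlap.
PTPN7, chr1:202159405-202159704, minus strand: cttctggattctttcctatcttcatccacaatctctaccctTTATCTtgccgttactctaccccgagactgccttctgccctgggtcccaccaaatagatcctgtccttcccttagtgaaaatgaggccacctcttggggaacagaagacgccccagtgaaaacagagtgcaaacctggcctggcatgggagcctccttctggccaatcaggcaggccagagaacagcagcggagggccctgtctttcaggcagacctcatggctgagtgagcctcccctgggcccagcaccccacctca
PTPN7, chr1:202159940-202160239, minus strand: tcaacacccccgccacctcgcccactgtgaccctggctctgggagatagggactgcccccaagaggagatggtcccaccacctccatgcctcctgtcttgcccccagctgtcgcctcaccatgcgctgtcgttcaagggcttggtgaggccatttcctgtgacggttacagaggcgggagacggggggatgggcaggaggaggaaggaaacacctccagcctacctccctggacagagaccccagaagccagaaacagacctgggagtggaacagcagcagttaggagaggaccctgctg
PTPN7, chr1:202160553-202160852, minus strand: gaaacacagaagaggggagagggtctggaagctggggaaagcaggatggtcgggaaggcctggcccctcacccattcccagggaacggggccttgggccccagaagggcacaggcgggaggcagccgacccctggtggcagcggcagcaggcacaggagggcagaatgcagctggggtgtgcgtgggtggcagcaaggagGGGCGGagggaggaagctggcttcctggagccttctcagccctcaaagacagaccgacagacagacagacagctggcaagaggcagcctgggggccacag
PTPN22, chr1:113871663-113871962, minus strand: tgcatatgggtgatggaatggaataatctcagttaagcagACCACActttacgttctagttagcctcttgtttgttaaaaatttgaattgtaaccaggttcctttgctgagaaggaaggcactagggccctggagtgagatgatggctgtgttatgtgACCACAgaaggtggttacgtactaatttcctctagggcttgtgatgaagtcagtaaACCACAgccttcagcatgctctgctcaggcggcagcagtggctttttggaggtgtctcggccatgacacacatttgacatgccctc
PTPN1, chr20:50510133-50510432, plus strand: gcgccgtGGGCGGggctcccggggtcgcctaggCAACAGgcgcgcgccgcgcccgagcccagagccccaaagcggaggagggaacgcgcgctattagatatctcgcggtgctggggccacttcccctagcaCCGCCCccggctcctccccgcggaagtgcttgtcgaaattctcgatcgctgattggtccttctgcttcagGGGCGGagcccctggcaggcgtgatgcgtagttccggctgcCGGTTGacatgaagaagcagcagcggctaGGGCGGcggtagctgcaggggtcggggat

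In the PTPN7 windows, the first held 1 GATA match, the second none of the 7 motifs and the third 1 SP1 match. A GATA match occurs in 10.3% of all 35116 windows of this length and an SP1 match in 45%. The PTPN22 window held 3 RUNX matches and no match to the other motifs. At least 1 RUNX match occurs in 13.1% of all windows and at least 3 in 0.125% (44 windows); that count was looked up after the matches had been seen. In the PTPN1 window there were 4 SP1 matches, a number reached by 9.06% of windows, and 2 MYB matches, a motif found in 32.9% of windows. STAT, NFE2 and ETS matches, found in 7.66%, 7.71% and 10.3% of all windows, were not in the letters of these 5. The arrays do not show which start site was in use, and a match is a string of letters, not a measured site. Windows were held for 8 of the 10 genes.

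Over the 12 arrays, medians of the deposited log2 values lay between 6.41 and 6.50, and r between arrays of the same group was 0.994 to 0.996. Of 14 erythroid markers 8 were measured, and their summed level was log2 13.02 to 13.09 in HEL and 11.66 to 11.84 in UKE1. GATA1, the master regulator of erythroid cells, had a mean log2 level of 10.28 in untreated HEL and 7.46 in untreated UKE1, and KLF1, another erythroid factor, 8.66 and 6.84. Whether a gene lay above background is not analysed here. Levels of the 10 genes are compared only for one gene between groups, never between these genes. Across genes, levels serve only to set apart the lowest 25% by mean level and to sum marker lists.

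With ITF2357, 9 of the 10 genes changed in HEL and 9 of 10 in UKE1, against 42.4% and 44.3% of all genes tested. A gene is said to have risen or fallen when its Benjamini-Hochberg adjusted p from limma over the 18417 genes was under 0.05. In HEL, 6 rose and 3 fell (22.6% and 19.9% of all genes did); in UKE1, 3 rose and 6 fell (22.0% and 22.3%). PTPN1, CBL and CBLB rose in both lines, as 14.0% of genes did, and PTPN2, PTPN6 and PTPN7 fell in both, as 12.9% did. PTPN12 and PTPN18 rose in HEL and fell in UKE1, as 1.49% of genes did. PTPN22 rose in HEL and was not called in UKE1, and PTPN11 fell in UKE1 and was not called in HEL; the test of the difference between the lines is given for each gene. In each line the treated and untreated arrays of 9 of the 10 genes did not overlap, against 49.0% of all genes in HEL and 53.9% in UKE1. The median log2 change of the 10 was 0.34 in HEL and -0.26 in UKE1, beside -0.013 and 0.011 over all genes, and the median size of the change was 0.73 and 0.48, beside 0.17 and 0.18. None of the 10 lay in the lowest 25% of genes by mean level. With those dim genes left out, 7678 genes were called in HEL and 7902 in UKE1, beside 7816 and 8160 with them. The share of genes called is therefore higher among the brighter genes, so 42.4% and 44.3% understate the share for genes as bright as these 10. That refit also adjusted p over fewer genes, which by itself can change the calls. These shares describe the 10 genes and are no test.

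**Figure D1:**
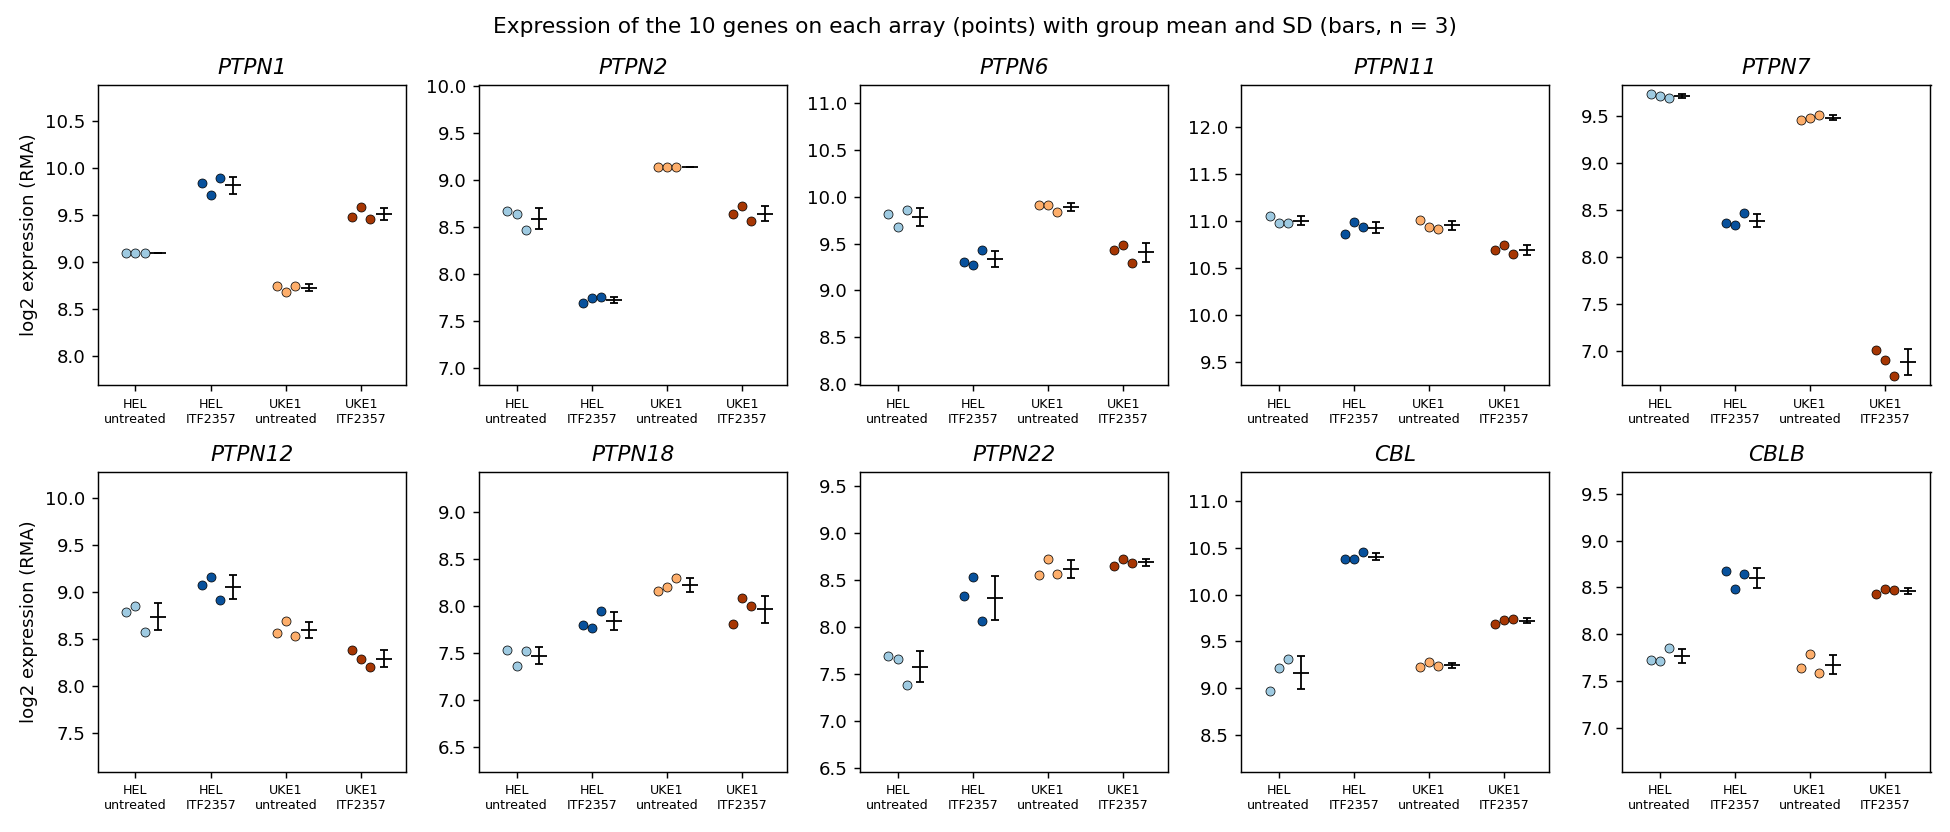
Log2 expression of the 10 genes on each of the 12 arrays (points, 3 per group), with the group mean and SD beside them; every panel spans the same log2 range around its own centre. PTPN7 shows the widest spread of group means, 2.83 on the log2 scale, and PTPN11 the narrowest, 0.31.

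PTPN1 and PTPN2 are close relatives that take phosphate from JAK kinases; PTPN1 acts at the endoplasmic reticulum membrane on JAK2 and TYK2, and PTPN2 on JAK1, JAK3 and STATs. They moved in opposite directions. Log2 levels of PTPN1 were 9.10, 9.10 and 9.09 in untreated HEL, 9.84, 9.72 and 9.90 in treated HEL, 8.74, 8.68 and 8.75 in untreated UKE1 and 9.48, 9.59 and 9.46 in treated UKE1. No group overlapped another, and both treated groups were above both untreated ones. PTPN1 rose 1.65-fold in HEL (log2 0.72 ± 0.062, SE, limma adjusted p = 4.82e-07) and 1.72-fold in UKE1 (0.79 ± 0.062, adjusted p = 2.03e-07). The responses differed by 0.064 between the lines, with a 95% interval from -0.13 to 0.25 (adjusted p = 0.663).

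PTPN2 had log2 levels of 8.67, 8.64 and 8.46 in untreated HEL and 7.69, 7.74 and 7.75 in treated HEL. In UKE1 they were 9.14, 9.13 and 9.14 without drug and 8.64, 8.72 and 8.57 with it. Treated and untreated arrays did not overlap in either line, and untreated HEL overlapped treated UKE1. PTPN2 fell 1.82-fold in HEL (-0.86 ± 0.066, adjusted p = 1.69e-07) and 1.41-fold in UKE1 (-0.50 ± 0.066, adjusted p = 2.69e-05). The fall was smaller in UKE1, by 0.37 ± 0.094 on the log2 scale (limma adjusted p = 0.0112 for the difference of responses). This was the only one of the 10 with a more positive response in UKE1 that passed the threshold.

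PTPN6 and PTPN11, known as SHP-1 and SHP-2, carry paired SH2 domains that dock on phosphorylated receptors. PTPN6 is mostly a blood cell enzyme that shuts down signals of the erythropoietin receptor and others, whereas PTPN11 transmits signals towards RAS and MAP kinases. PTPN6 levels were 9.81, 9.68 and 9.86 in untreated HEL and 9.30, 9.27 and 9.43 in treated HEL; in UKE1 they were 9.91, 9.91 and 9.84, and 9.44, 9.49 and 9.30 with the drug. The treated arrays were below the untreated ones in each line, and the lines overlapped within either condition. PTPN6 fell 1.37-fold in HEL (-0.45 ± 0.073, adjusted p = 0.000158) and 1.40-fold in UKE1 (-0.48 ± 0.073, adjusted p = 8.19e-05). The responses differed by -0.032, with a 95% interval from -0.25 to 0.19.

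PTPN11 varied least. Its log2 levels were 11.06, 10.97 and 10.98 in untreated HEL and 10.86, 10.985 and 10.93 in treated HEL, which overlap. In UKE1 they were 11.01, 10.93 and 10.91 without drug and 10.69, 10.75 and 10.64 with it, which do not. The change was -0.075 ± 0.060 in HEL (adjusted p = 0.36), with a 95% interval from -0.20 to 0.054. In UKE1 PTPN11 fell 1.20-fold (-0.26 ± 0.060, adjusted p = 0.0026). The difference of the responses, -0.18 with an interval from -0.37 to -0.0014, did not pass the threshold over all genes (adjusted p = 0.14).

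PTPN7, the haematopoietic tyrosine phosphatase, binds and inactivates the MAP kinases ERK and p38. It had the largest changes of the 10. Its log2 levels were 9.73, 9.72 and 9.69 in untreated HEL and 8.37, 8.34 and 8.46 in treated HEL. In UKE1 they were 9.46, 9.48 and 9.51 without drug and 7.01, 6.90 and 6.74 with it. The 4 groups did not overlap, and treated UKE1 lay lowest. PTPN7 fell 2.51-fold in HEL (-1.33 ± 0.071, adjusted p = 7.93e-09) and 6.07-fold in UKE1 (-2.60 ± 0.071, adjusted p = 6.76e-11). Of all 18417 genes, 70 fell further in HEL and 1 fell further in UKE1. The UKE1 fall exceeded that in HEL by 1.27 ± 0.10 on the log2 scale, or 2.42-fold (adjusted p = 1.38e-06 for the difference of responses). Of 9 measured megakaryocyte markers, 5 fell in HEL and 7 in UKE1, and none rose, where 19.9% and 22.3% of all genes fell. Their summed level was log2 13.47 to 13.49 in untreated HEL, 13.19 to 13.27 in treated HEL, 12.70 to 12.76 in untreated UKE1 and 12.33 to 12.39 in treated UKE1. Between the untreated lines, 6 of the 9 markers were lower in UKE1 and 2 higher, beside 34.4% and 33.3% of all genes. Mean levels of PPBP were 6.48 in untreated HEL and 10.52 in untreated UKE1, and those of VWF 5.16 and 7.74. In a bulk sample of a cell line, a changed share of cells and a changed RNA level per cell cannot be told apart. No separate cell types were measured within a line, and any link of these markers to the fall of PTPN7 was not tested.

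PTPN12, PTPN18 and PTPN22 form the PEST family, whose tails rich in proline, serine and threonine bind partners such as PSTPIP1 and CSK. PTPN12 acts on cytoskeletal proteins such as BCAR1, PTPN18 on ERBB2 and SRC family kinases, and PTPN22 on LCK, FYN and ZAP70 in lymphocytes. All 3 responded less positively in UKE1 than in HEL. PTPN12 had log2 levels of 8.78, 8.85 and 8.57 in untreated HEL and 9.07, 9.17 and 8.92 in treated HEL, and 8.56, 8.69 and 8.53 in untreated UKE1 and 8.39, 8.28 and 8.20 in treated UKE1. In HEL the treated arrays were the higher ones and in UKE1 the lower ones, with no overlap within a line. PTPN12 rose 1.24-fold in HEL (0.31 ± 0.088, adjusted p = 0.00976) and fell 1.23-fold in UKE1 (-0.30 ± 0.088, adjusted p = 0.0117). The responses differed by -0.62 ± 0.12 (adjusted p = 0.00262). Each single-line call rests on particular arrays. Without replicate 3 of untreated HEL the HEL value was 0.23 (adjusted p = 0.0509), and the UKE1 value was -0.26 without replicate 2 of untreated UKE1 or replicate 3 of treated UKE1 (adjusted p = 0.0531 and 0.0539).

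For PTPN18, log2 levels were 7.53, 7.36 and 7.52 in untreated HEL and 7.80, 7.76 and 7.95 in treated HEL. They were 8.16, 8.20 and 8.30 in untreated UKE1 and 7.80, 8.08 and 7.999 in treated UKE1. The treated groups of the lines overlapped, whereas every untreated UKE1 array was above every HEL array. PTPN18 rose 1.29-fold in HEL (0.37 ± 0.083, adjusted p = 0.00251) and fell 1.20-fold in UKE1 (-0.26 ± 0.083, adjusted p = 0.0217). The responses differed by -0.62 ± 0.12 (adjusted p = 0.00171). Without replicate 3 of untreated UKE1 the UKE1 change was -0.22 (adjusted p = 0.0829), and without replicate 1 of treated UKE1 it was -0.18 (adjusted p = 0.113).

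PTPN22 levels were 7.69, 7.66 and 7.38 in untreated HEL, 8.33, 8.54 and 8.07 in treated HEL, 8.56, 8.73 and 8.56 in untreated UKE1 and 8.65, 8.73 and 8.69 in treated UKE1. The HEL groups stood apart from each other and below UKE1, whose groups overlapped. PTPN22 rose 1.67-fold in HEL (0.74 ± 0.11, adjusted p = 7.46e-05), and the UKE1 change was 0.073 ± 0.11 (adjusted p = 0.646), with a 95% interval from -0.16 to 0.31. The responses differed by -0.66 ± 0.15 (adjusted p = 0.00683).

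CBL and CBLB rose in both lines. Both are RING ubiquitin ligases with a domain that binds phosphotyrosine; CBL is a main brake on KIT and FLT3 signalling, and CBLB is best known as a brake on lymphocyte activation. CBL levels were 8.97, 9.22 and 9.31 in untreated HEL, 10.38, 10.38 and 10.45 in treated HEL, 9.23, 9.28 and 9.24 in untreated UKE1 and 9.69, 9.73 and 9.74 in treated UKE1. The untreated groups overlapped, and the treated HEL arrays lay above all others. CBL rose 2.36-fold in HEL (1.24 ± 0.077, adjusted p = 2.93e-08), where 213 of 18417 genes rose further, and 1.39-fold in UKE1 (0.47 ± 0.077, adjusted p = 0.000165). The rise was smaller in UKE1, by -0.77 ± 0.11 (adjusted p = 0.000206).

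CBLB levels were 7.72, 7.72 and 7.85 in untreated HEL and 8.68, 8.48 and 8.64 in treated HEL, and 7.64, 7.79 and 7.59 in untreated UKE1 and 8.43, 8.48 and 8.47 in treated UKE1. Treated arrays were above untreated ones in each line, and the lines overlapped in both conditions. CBLB rose 1.79-fold in HEL (0.84 ± 0.072, adjusted p = 4.84e-07) and 1.73-fold in UKE1 (0.79 ± 0.072, adjusted p = 7.94e-07). Its responses differed by -0.051, with a 95% interval from -0.27 to 0.17 (adjusted p = 0.773).

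**Figure D2:**
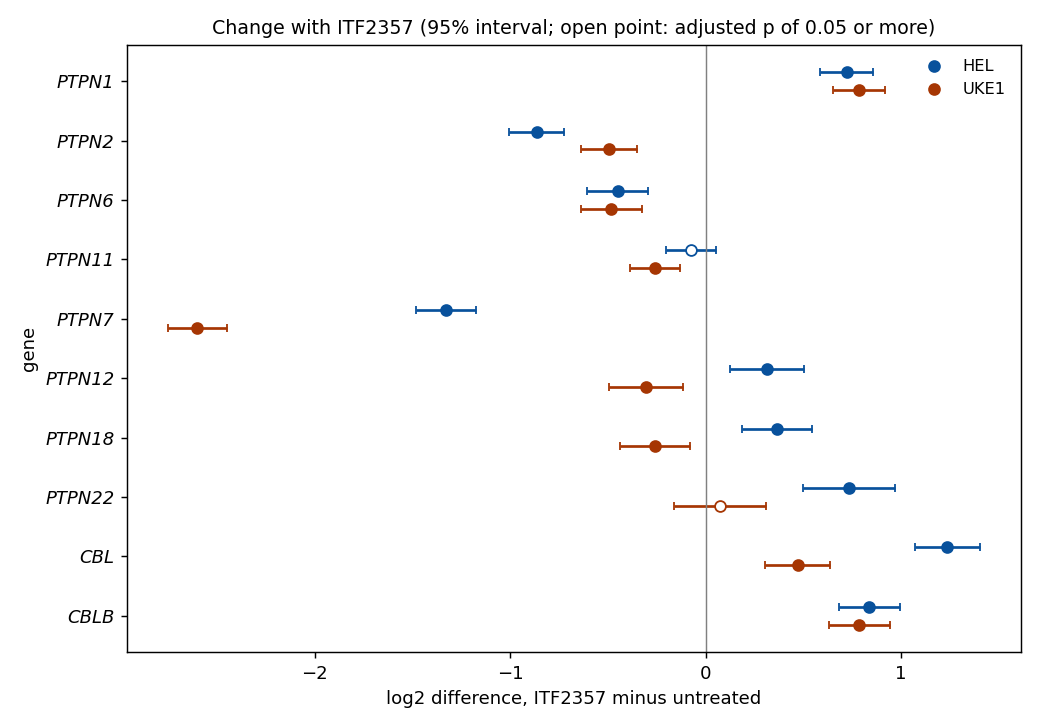
Log2 change with ITF2357 (x axis) of each gene (y axis) in HEL and UKE1, with 95% intervals; open points did not pass the threshold. PTPN7 falls to -1.33 in HEL and -2.60 in UKE1, and PTPN12 and PTPN18 lie on opposite sides of 0 in the lines.

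The difference of the responses was called for 6 of the 10 genes, against 23.9% of all genes. PTPN7, PTPN12, PTPN18, PTPN22 and CBL had the more negative response in UKE1, and PTPN2 the more positive one; 13.8% and 10.1% of all genes did so. Over all genes, 1854 were more positive and 2541 more negative, and 1370 and 3102 when each array was centred on its median. That centring left the counts of these 10 at 1 and 5.

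Without drug, 5 of the 10 differed between the lines, against 67.7% of all genes; 3 were higher in UKE1 and 2 lower, against 33.3% and 34.4%. The arrays of those 5 did not overlap between the lines, as for 69.4% of all genes, and the median size of the difference was 0.19, beside 0.35 over all genes. PTPN22 was 2.06-fold higher in UKE1 (1.04 ± 0.11, adjusted p = 1.16e-06), PTPN18 1.68-fold higher (0.75 ± 0.083, adjusted p = 2.04e-06) and PTPN2 1.46-fold higher (0.55 ± 0.066, adjusted p = 4.87e-06). PTPN1 was 1.29-fold lower in UKE1 (-0.37 ± 0.062, adjusted p = 0.000112) and PTPN7 1.17-fold lower (-0.23 ± 0.071, adjusted p = 0.00978). After quantile normalization the PTPN7 difference was -0.13 (adjusted p = 0.138) and PTPN6 was higher in UKE1 by 0.22 (adjusted p = 0.0137), so that 4 were higher and 1 lower. Of 10 T cell markers, all measured, 7 were higher and 2 lower in untreated UKE1, and their summed level was log2 9.54 to 9.59 in untreated HEL, 9.50 to 9.57 in treated HEL, 11.41 to 11.42 in untreated UKE1 and 11.08 to 11.12 in treated UKE1. The CD3 chains CD3D, CD3E and CD3G had mean log2 levels of 4.30, 4.96 and 4.16 in untreated HEL and 9.15, 8.56 and 9.92 in untreated UKE1. LCK, ZAP70, CD28 and TRAT1 were also higher in untreated UKE1, by less. Their means were 5.68, 5.82, 4.62 and 3.05 in untreated HEL and 7.91, 6.61, 5.15 and 3.29 in untreated UKE1. CD2, CD5 and CD7 did not share this and had means of 6.55, 5.65 and 8.65 in untreated HEL. In untreated UKE1 the means of CD2, CD5 and CD7 were lower, at 5.74, 5.51 and 8.37. Of the 10 T cell markers, 5 fell in UKE1 with the drug and 1 fell in HEL, beside 22.3% and 19.9% of all genes. Of 6 measured B cell markers, 4 were higher and none lower in untreated UKE1, with a summed level of log2 8.12 to 8.30 in untreated HEL, 8.08 to 8.26 in treated HEL, 9.44 to 9.49 in untreated UKE1 and 9.80 to 9.87 in treated UKE1. Some markers outside the lymphoid lists were also higher in untreated UKE1. Of 8 granulocyte and monocyte markers 4 were higher and 1 lower, as were 4 and 1 of 10 fibroblast and epithelial markers. These counts stand beside 33.3% of all genes higher and 34.4% lower. The summed level of the granulocyte and monocyte list overlapped between the untreated lines, at log2 10.17 to 10.33 in HEL and 10.23 to 10.41 in UKE1. The summed level of the fibroblast and epithelial list was log2 10.58 to 10.71 in untreated HEL and 11.63 to 11.64 in untreated UKE1. That list did not move as a whole. The keratins KRT8 and KRT18 had means of 8.11 and 9.94 in untreated HEL and 9.82 and 10.90 in untreated UKE1. COL3A1 stood at 5.83 in both, and EPCAM was lower in UKE1, at 4.06 against 4.65. All 8 measured erythroid markers were lower in untreated UKE1. Marker levels in a cell line do not show that cells of these types were present. Any link of the marker lists to the differences of PTPN22 and PTPN7 was not tested.

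With ITF2357, 7 of the 10 differed between the lines, against 68.0% of all genes; 2 were higher in UKE1 and 5 lower, against 34.0% and 34.0%. The arrays of 7 did not overlap, as for 72.3% of all genes. PTPN7 was 2.84-fold lower in UKE1 (-1.51 ± 0.071, adjusted p = 1.92e-10), PTPN12 lower as well (-0.76 ± 0.088, adjusted p = 3.19e-06), CBL 1.61-fold lower (-0.68 ± 0.077, adjusted p = 2.46e-06) and PTPN1 1.24-fold lower (-0.31 ± 0.062, adjusted p = 0.000564). PTPN2 was 1.89-fold higher (0.92 ± 0.066, adjusted p = 2.18e-08) and PTPN22 1.30-fold higher (0.38 ± 0.11, adjusted p = 0.00747). PTPN11 was 1.18-fold lower (-0.24 ± 0.060, adjusted p = 0.00322), a call lost after quantile normalization (-0.067, adjusted p = 0.316), which also brought PTPN1 to -0.17 (adjusted p = 0.0225) and PTPN6 past the threshold at 0.17 (adjusted p = 0.0451), so that 3 were higher and 4 lower. These differences share arrays with the drug comparisons and add no independent evidence to them.

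**Figure D3:**
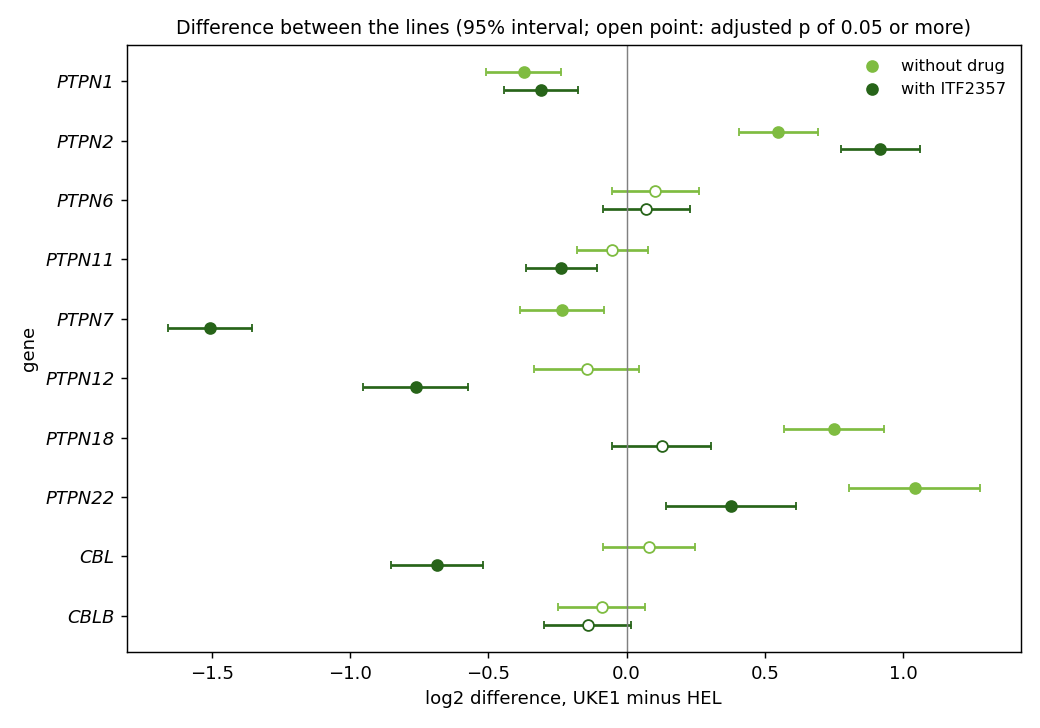
Log2 difference UKE1 minus HEL (x axis) of each gene (y axis) without drug and with ITF2357, with 95% intervals; open points did not pass the threshold. PTPN7 goes from -0.23 without drug to -1.51 with it, while PTPN18 goes from 0.75 to 0.13.

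Genes with a like pattern were sought for the 5 members whose group means spanned at least 1 on the log2 scale. Likeness was the root mean square difference of the 4 group means, each centred on the gene's own mean. For PTPN7 the nearest were TRIM8 (0.18), CD84 (0.22), a leukocyte surface receptor, and RGS18 (0.23), a G protein regulator of platelets; only these 3 of all genes lay within 0.25. Their log2 changes were -1.38, -1.56 and -1.54 in HEL and -2.11, -2.03 and -2.12 in UKE1. For the other 4, 918 genes lay within 0.25 of PTPN1, 912 of PTPN22, 352 of CBL and 339 of PTPN2. The distance was not scaled to the span of the group means, which was 2.83 for PTPN7 and 1.09 to 1.41 for these 4. A narrower span lets more genes within the same distance, so these counts do not compare how common the patterns are. TTC13, PRKCI and TMEM41B were nearest to PTPN1, PDHB, HDDC2 and GIMAP2 to PTPN2, SEPTIN8, GGA2 and GYS1 to PTPN22, and SLC7A8, MMD and BMPR2 to CBL, at distances from 0.022 to 0.080.

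**Figure D4:**
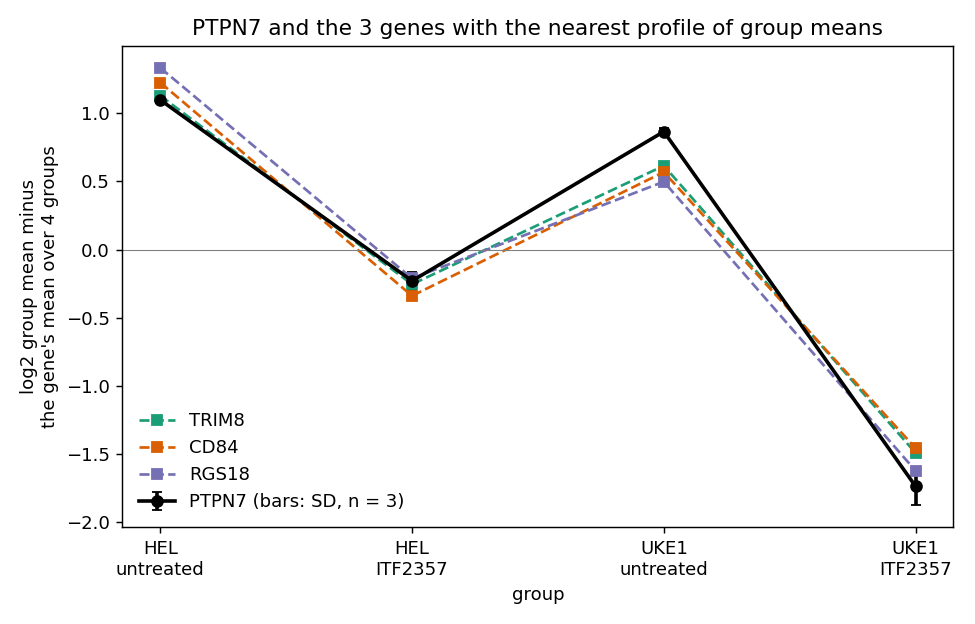
Group means of PTPN7 (black, bars: SD, n = 3) and of TRIM8, CD84 and RGS18, each minus the gene's mean over the 4 groups (y axis, log2), for the 4 groups on the x axis. All 4 genes are lowest in treated UKE1, and PTPN7 is the highest of them in untreated UKE1.

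The nearest measured protein-coding gene on each side of every member, by RefSeq order, was also read. Of these 20 neighbours, 6 rose and 4 fell in HEL and 7 rose and 3 fell in UKE1, or 50% in each line beside the 42.4% and 44.3% of all genes. Next to PTPN7, GPR37L1 changed by -0.16 in HEL and 0.11 in UKE1 and LGR6 by 0.015 and -0.0046, none of them called (adjusted p = 0.178, 0.389, 0.924 and 0.978). The neighbours of 2 other members are named after their values were seen. Next to CBL, MCAM rose by 0.84 and 0.73 on the log2 scale in HEL and UKE1 (adjusted p = 8.27e-07 and 3.07e-06) and DRC12 by 0.62 and 0.30 (adjusted p = 2.54e-05 and 0.00856). Next to PTPN2, the nucleoporin gene SEH1L fell by 0.89 and 0.88 (adjusted p = 4.95e-08 and 4.9e-08), while CEP76 rose by 0.47 and 0.41 (adjusted p = 9.81e-06 and 3.44e-05).

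The wider pathway was read from lists of partners, in which the 10 genes themselves were not counted. For genes given with a pair of values, the first is the log2 change in HEL and the second that in UKE1. The counts in each list stand beside 22.6% of all genes that rose and 19.9% that fell in HEL, and 22.0% and 22.3% in UKE1, and they describe the lists without a test. Among the other non-receptor tyrosine phosphatases 2 of 9 rose and 2 fell in HEL, and 3 rose and 3 fell in UKE1, with median log2 changes of 0.11 and 0.085. PTPN13, a large phosphatase that binds FAS, rose by 1.15 ± 0.078 in HEL and 1.56 ± 0.078 in UKE1 (adjusted p = 5.87e-08 and 3.69e-09). PTPN14 rose by 0.40 and 0.30 and PTPN23 fell by 0.30 and 0.21, while PTPN9 was at 0.11 in HEL (adjusted p = 0.19) and fell by 0.49 in UKE1. PTPN5 was at 0.13 in HEL (adjusted p = 0.188) and rose by 0.42 in UKE1. Of 16 measured receptor tyrosine phosphatases, 3 rose and 3 fell in HEL, and 3 rose and 2 fell in UKE1 (medians -0.023 and 0.092). PTPRU rose by 0.84 and 0.55 and PTPRH by 0.53 and 0.75, whereas PTPRD fell by 0.83 in HEL and PTPRB by 0.97 in UKE1.

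Of 20 measured docking proteins and inhibitory receptors that recruit SHP-1 or SHP-2, or CSK, 4 rose and 5 fell in HEL, and 5 rose and 8 fell in UKE1 (medians 0.020 and -0.13). PAG1, the membrane adaptor that recruits CSK, rose by 1.81 ± 0.068 in HEL and 1.57 ± 0.068 in UKE1 (adjusted p = 1.09e-09 and 1.3e-09). The docking protein GAB3 fell by 0.77 and 1.14, the adhesion receptor PECAM1 by 0.58 and 0.83 and the adaptor DOK2 by 0.43 and 1.32. Of 16 measured CBL partners and regulators, 4 rose and 3 fell in HEL, and 4 rose and 7 fell in UKE1 (medians 0.011 and -0.13). GRB2, the adaptor that links CBL to receptors, rose by 0.65 and 0.40 (adjusted p = 4.06e-07 and 3.51e-05). The adaptors SLA and SLA2, which bring CBL to its targets, fell by 1.59 and 1.10 in UKE1, where HEL had 0.31 (adjusted p = 0.0782) and -0.19 (adjusted p = 0.0323). Their responses differed between the lines by -1.89 and -0.90 (adjusted p = 9.03e-06 and 1.67e-05). UBASH3A, a CBL-binding phosphatase of T cells, fell by 0.91 in HEL and 0.25 in UKE1, and SPRED1, an inhibitor of RAS signalling, rose by 0.26 and fell by 0.65.

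Among 20 measured SRC family and other cytoplasmic tyrosine kinases, 7 rose and 5 fell in HEL, and 5 rose and 9 fell in UKE1 (medians 0.00054 and -0.017). FYN rose by 1.23 ± 0.061 in HEL and 0.71 ± 0.061 in UKE1 (adjusted p = 4.91e-09 and 4.57e-07). LYN rose by 0.82 in HEL and stood at 0.0088 in UKE1 (adjusted p = 0.925), a difference of -0.81 (adjusted p = 1.08e-05), and PTK2B rose by 0.73 in HEL with 0.046 in UKE1 (adjusted p = 0.528, and for the difference = 2.39e-05). FES fell by 0.31 and 0.92 and MATK, which like CSK restrains SRC kinases, by 0.24 and 0.80. CSK itself fell by 0.38 and 0.64 (adjusted p = 0.000419 and 3.74e-06). Of the 12 partners of the PEST phosphatases, which include CSK, 2 rose and 6 fell in HEL, and 4 rose and 6 fell in UKE1 (medians -0.18 and -0.22). SHC1 rose by 0.73 and 0.19, TRAF3 fell by 0.54 and 0.72, and the paxillin relative LPXN rose by 1.26 in UKE1 with 0.065 in HEL (adjusted p = 0.502). TGFB1I1, another paxillin relative, fell by 0.51 in HEL, with 0.15 in UKE1 (adjusted p = 0.0519).

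Of 19 measured JAK kinases, STATs and haematopoietic receptors, 5 rose and 3 fell in HEL, and 4 rose and 9 fell in UKE1 (medians 0.061 and 0.052). JAK2, the mutated kinase on which PTPN1 acts, changed by 0.10 ± 0.069 in HEL (adjusted p = 0.263) and fell by 0.57 ± 0.069 in UKE1 (adjusted p = 1.14e-05), with a difference of -0.67 (adjusted p = 0.000247). STAT5A fell by 1.01 and 0.89 and JAK3 by 0.74 and 0.60, whereas STAT4 rose by 2.65 and 2.18. CSF1R, the macrophage growth factor receptor and a CBL target, fell by 1.44 in UKE1 and stood at -0.076 in HEL (adjusted p = 0.401). Of 8 SOCS family genes, inhibitors of the same receptors, 6 rose and 1 fell in HEL, and 3 rose and 3 fell in UKE1 (medians 0.23 and -0.023). SOCS3 rose by 0.59 and 0.37 and CISH fell by 0.38 and 0.22, while SOCS2 rose by 0.38 in HEL and fell by 0.30 in UKE1 (adjusted p for the difference = 0.000128). SOCS6 likewise rose by 0.21 and fell by 0.49, and SOCS4 rose by 0.24 and 0.29.

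A further list held MAP kinases, listed as substrates of PTPN7, and other phosphatases of MAP kinases. Of its 13 measured genes, 6 rose and 2 fell in HEL, and 6 rose and 1 fell in UKE1 (medians 0.094 and 0.19). DUSP5, a nuclear ERK phosphatase, rose by 0.80 ± 0.056 in HEL and 1.00 ± 0.056 in UKE1 (adjusted p = 8.19e-08 and 9.22e-09). DUSP1 rose by 1.02 and 0.74 and DUSP10 by 0.71 and 0.69. DUSP2 fell by 0.73 in HEL, with -0.0073 in UKE1 (adjusted p = 0.952), and DUSP16 rose by 0.68 in UKE1, with 0.094 in HEL (adjusted p = 0.309).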

How the data were processed

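Each of the 12 RNA samples was hybridised to 1 Affymetrix Gene ST array. The authors' values came from RMA in Affymetrix Expression Console, per the submitters' processing notes, which name no version or build here. As deposited they were read as log2 from their range (1.26 to 14.36), since no label states the base. Of 33297 rows, GEO's platform annotation gave 1 symbol for 19460, several for 1754 and none listed for 12083; 19429 gene IDs matched RefSeq (GRCh38.p14). For genes with several rows the row with the highest mean was kept, which left 18417 genes; each of the 10 genes here had 1 row.

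All 12 arrays entered 1 fit of the 4 group means with limma 3.58.1 in R 4.3.3 (lmFit, eBayes, 8 residual degrees of freedom), with two-sided tests and Benjamini-Hochberg adjustment over all genes of a contrast. Errors of changes are SE of the fit. Precision is limited by the 3 arrays of each group. The fit was tested on simulated data. The members, lists and tests were chosen with earlier results of these data known. Named partners are, for each list and line, the 3 measured genes that rank first by adjusted p, with JAK2 and STAT5A; like genes are the 3 nearest to each member whose group means span at least 1. Neighbours by position were added later. Alternatives were the scaling, a filter on dim genes, the row choice, fewer groups in the fit, the variance prior, a replicate block and leaving out each array.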

Additional observations from a re-analysis of the deposited data

Results flagged for a closer look

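The ITF2357 responses of 6 genes differed between the lines by the test of the difference itself (UKE1 minus HEL, log2, limma adjusted p as given in the report). The differences were 0.37 for PTPN2, -1.27 for PTPN7, -0.62 for PTPN12, -0.62 for PTPN18, -0.66 for PTPN22 and -0.77 for CBL. Leaving out each of the 12 arrays in turn, the PTPN7 difference lay between -1.34 and -1.20, that of CBL between -0.84 and -0.67 and that of PTPN2 between 0.33 and 0.43. For PTPN12, PTPN18 and PTPN22 it lay between -0.69 and -0.54, -0.68 and -0.54, and -0.79 and -0.55.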

How the results depend on the processing

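The counts of the 10 genes called (9 in HEL, 9 in UKE1, 6 for the difference, 5 and 7 between the lines without and with drug) were the same under all 7 alternatives that keep every array, or 6 for the difference, whose fit already uses all groups. Leaving out 1 array gave 8 to 9, 8 to 9, 6 to 6, 5 to 6 and 7 to 8. Of 340 values for single genes under settings with all arrays, 334 kept direction and side of the threshold, and so did 347 of 360 with 1 array left out. Among the settings with all arrays, only quantile normalization and median centring could change a log2 difference of these genes. The others could change only the adjusted p, so most of the 340 directions were fixed in advance. Quantile normalization turned 2 uncalled values, the CBLB difference of responses to 0.021 and the PTPN11 difference between untreated lines to 0.13. It also exchanged members between the lines: PTPN6 passed the threshold, at 0.22 without drug and 0.17 with it (adjusted p = 0.0137 and 0.0451), PTPN7 without drug and PTPN11 with it no longer did, and the split of higher and lower in UKE1 became 4 and 1 without drug and 3 and 4 with it. With 1 array left out, the sign changed for uncalled values only: the PTPN6 difference of responses ranged from -0.073 to 0.023, that of CBLB from -0.11 to 0.0059, and CBL between untreated lines from -0.018 to 0.15. The causes were not tested. Replicate numbers are shared between groups. Over all genes, same-numbered arrays deviated from their group means with correlations from -0.088 to 0.12. For arrays with different numbers the correlations ran from -0.14 to 0.095. With 3 arrays per group this cannot settle whether the samples were paired, and no pairing was assumed. A replicate block left the counts of the 10 genes at 9, 9, 6, 5 and 7 and those over all genes at 7769, 8106, 4274, 12452 and 12498. With that block the limma adjusted p of the PTPN12 change was 0.00202 in HEL and 0.00248 in UKE1. Signal over background is not analysed here.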
